A study of Mus musculus with 12 samples.

Results

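The genes described here are 7 genes of GABA and glycine signalling on Affymetrix mouse expression arrays of the developing mouse auditory nerve. They are Glra3 and Glrb (subunits of the glycine receptor), Gabra2, Gabra5 and Gabrb2 (subunits of the GABA-A receptor), Slc12a5 (the potassium-chloride cotransporter KCC2) and Gad1 (a glutamate decarboxylase, which makes GABA). They were chosen by name, with earlier results of these data known. They are 7 of the 18193 genes that have a probe set with a single gene symbol. Each gene was represented by such a probe set with the highest mean over the 12 arrays, and all 7 were found. In total they have 19 probe sets, and the others served as a check.

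The samples came from CBA/CaJ mice of both sexes of 6 postnatal ages (P0 at birth, then P3, P7, P10, P14 and P21), with 2 mice at each. The labels name no engineered allele and no treatment. The nerve tissue of both cochleas of a mouse was pooled into 1 sample, so that each array is 1 mouse. The bony shell, the lateral wall and most of the sensory epithelium were removed, and the modiolus was kept, which makes the tissue enriched for nerve rather than pure. The study profiled these stages as a reference for regeneration, and the question here is how the message of these genes changed from birth to the third week.

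GABA and glycine are the main inhibitory transmitters of the mature central nervous system. Both open chloride channels built from several subunits, and whether chloride then flows in or out depends on the exporter KCC2, whose message rises in most central neurons after birth. In immature neurons chloride tends to flow out, so that GABA can depolarise the cell. Spiral ganglion neurons of the cochlea carry receptors for GABA, and fibres of the olivocochlear bundle, which descend from the brainstem to the cochlea, are known to contain it.

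Values are log2 expression on each array. A gene was called higher or lower where the limma fit over all 12 arrays gave an adjusted p under 0.05, over the 45037 probe sets tested, and a fold over 1.5. Values of the 2 mice of a stage correlated at 0.9910 to 0.9962 over all probe sets. The mean log2 value per array was 10.29 to 11.89 for the neuron markers and 9.31 to 11.77 for the 4 matched Schwann cell markers. Among the latter, Pmp2 read 4.09 and 4.71 at P0, under the 25th percentile of both arrays. With 2 mice per stage, these p-values rest on a spread between mice of 1 stage. The fit pools it over all 6 stages and draws it toward the spread of all probe sets. A value under the 25th percentile of its array, which lay between 5.06 and 5.18, may be background. Where both arrays of the dimmer stage were under it, the fold is given as at least that against the percentile.

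The upstream sequences of 4 of the genes are shown because they belong to the pairs whose values ran most alike, Glra3 with Glrb and Gabrb2 with Gad1. Each is the 250 bases before the start of the gene as RefSeq gives it on GRCm38.p6, read in the direction of the gene, and for Gabrb2, which has 3 annotated starts, the most upstream one was taken. Capitals mark letters of the TATA box (TATAAA), the GC box (GGGCGG), the cAMP response element (TGACGTCA) and an E-box (CACCTG), searched on both strands.
Glra3, chr8:55940168-55940417, plus strand: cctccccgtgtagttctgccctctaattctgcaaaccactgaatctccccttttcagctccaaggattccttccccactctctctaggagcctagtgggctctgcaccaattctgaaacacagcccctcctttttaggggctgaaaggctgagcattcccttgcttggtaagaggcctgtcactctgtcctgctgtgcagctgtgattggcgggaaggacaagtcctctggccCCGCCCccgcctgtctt
Glrb, chr3:80913661-80913910, minus strand: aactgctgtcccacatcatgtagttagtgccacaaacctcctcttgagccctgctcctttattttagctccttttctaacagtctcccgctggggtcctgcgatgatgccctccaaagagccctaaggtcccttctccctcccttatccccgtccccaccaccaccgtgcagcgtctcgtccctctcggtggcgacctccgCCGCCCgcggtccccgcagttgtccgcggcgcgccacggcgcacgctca
Gabrb2, chr11:42420190-42420439, plus strand: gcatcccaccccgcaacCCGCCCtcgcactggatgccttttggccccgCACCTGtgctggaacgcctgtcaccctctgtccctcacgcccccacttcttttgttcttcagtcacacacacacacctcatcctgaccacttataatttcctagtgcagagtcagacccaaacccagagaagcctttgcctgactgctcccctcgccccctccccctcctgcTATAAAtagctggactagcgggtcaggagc
Gad1, chr2:70561879-70562128, plus strand: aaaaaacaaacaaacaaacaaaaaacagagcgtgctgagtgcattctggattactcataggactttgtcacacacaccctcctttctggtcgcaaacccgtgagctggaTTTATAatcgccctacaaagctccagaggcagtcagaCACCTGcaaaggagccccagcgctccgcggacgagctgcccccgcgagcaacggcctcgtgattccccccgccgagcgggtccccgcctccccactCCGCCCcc
The GC box was found in all 4 of these windows, and in 32.7% of the 32851 windows of the table. In Glra3 it lay 17 to 12 bases before the start, in Glrb 49 to 44 bases before it and in Gad1 8 to 3 bases before it, each time on the opposite strand. TATAAA stood 30 to 25 bases before this start of Gabrb2 on its own strand, and it occurs in 12.4% of all windows. Gad1 had the same letters on the opposite strand, 141 to 136 bases before the start. The E-box letters were found in Gabrb2 and Gad1, in the windows of Gabra2 and Slc12a5, which are not shown, and in 17.2% of all windows. The cAMP response element, present in 1.55% of all windows, was found in none of the 10 windows of the 7 genes. The window of Glra3 held 4 CpG dinucleotides and that of Glrb 20, against a median of 6 over all windows. The 2 genes, whose probe sets used here rose together, thus differed in this respect. These matches are letters in a window and not shown binding sites.

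**Figure D1:**
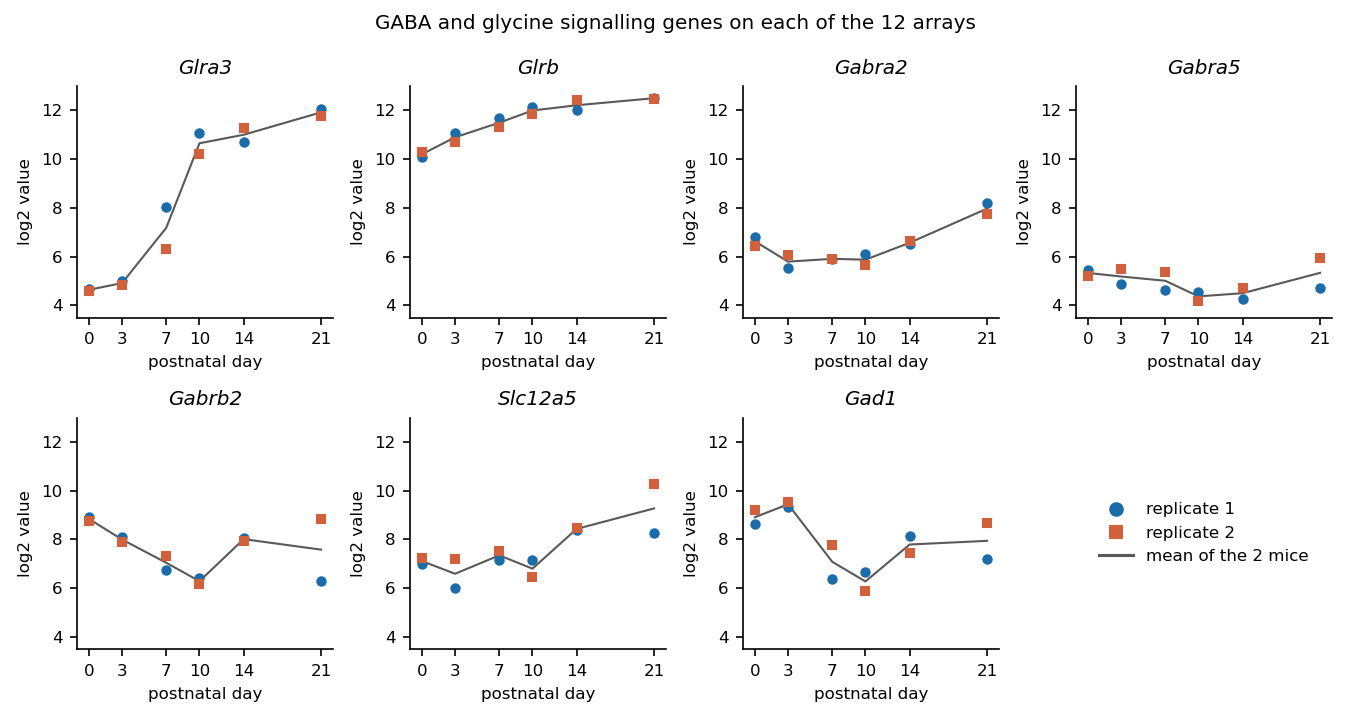
Log2 expression of the 7 genes against postnatal day, with circles for replicate 1, squares for replicate 2 and a line through the mean of the 2 mice. Glra3 climbs from 4.64 at P0 to 11.92 at P21, Glrb climbs less, Gabrb2 and Gad1 are lowest at P10, and the P21 arrays of Gabrb2, Slc12a5 and Gad1 lie far apart.

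Both glycine receptor genes rose by the probe sets used, which for Glra3 is 1 of 2 that disagree. Glra3 encodes an alpha subunit of the receptor, the kind that binds glycine. It read 4.69 and 4.59 at P0, 4.99 and 4.84 at P3, 8.05 and 6.32 at P7, 11.07 and 10.23 at P10, 10.71 and 11.29 at P14, and 12.07 and 11.77 at P21. Its P0 and P3 values may be background on all 4 arrays, every P7 value was above them, and every P10 value was above those of P7. From P0 the change was at least 4.27-fold at P7 (limma adjusted p = 0.0046), at least 47.2-fold at P10 (adjusted p = 1.56e-05), at least 60.1-fold at P14 (adjusted p = 8.82e-06) and at least 114-fold at P21 (adjusted p = 2.79e-06). Between successive stages it rose at least 4.1-fold from P3 to P7 (limma adjusted p = 0.00964) and 11-fold from P7 to P10 (adjusted p = 0.0238). The neighbours P0 and P3 (log2 change 0.27 ± 0.46, SE), P10 and P14 (0.35 ± 0.46) and P14 and P21 (0.92 ± 0.46, limma adjusted p = 0.283) did not pass the test. The step from P7 to P10 was not called without either P0 array (limma adjusted p = 0.0566 each), without P7 replicate 2 (2.60, 0.0826) or without P10 replicate 1 (3.05, 0.299), and limma on the 4 arrays alone called neither step (0.067 and 0.177). In bulk tissue, fewer cells of a type and less RNA per cell cannot be told apart.

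The rise of Glra3 rests on 1 of its 2 probe sets. Probe set 1457747_at, used above, was designed on an expressed sequence tag. The other, 1450239_at, was designed on a RefSeq mRNA and stayed between 4.41 and 4.74, under the 25th percentile on all 12 arrays (limma F-test, adjusted p = 0.377). The probe sets thus disagree, and which of them reads the Glra3 message in this tissue was not tested.

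Glrb encodes the beta subunit, which ties the glycine receptor to the scaffold protein gephyrin. It read 10.09 and 10.31 at P0, 11.07 and 10.72 at P3, 11.67 and 11.32 at P7, 12.14 and 11.85 at P10, 12.01 and 12.41 at P14, and 12.52 and 12.48 at P21. Every later array was above both P0 arrays, and only P10 and P14 overlapped among successive stages. Against P0 it was 2.45-fold higher at P7 (limma adjusted p = 0.00121), 3.47-fold at P10 (adjusted p = 8.77e-05), 4.03-fold at P14 (adjusted p = 3.61e-05) and 4.92-fold at P21 (adjusted p = 1.07e-05). No single step between neighbouring stages was called, the nearest being P3 to P7 (log2 change 0.60 ± 0.18, limma adjusted p = 0.054), and P3 against P0 missed the threshold too (0.70 ± 0.18, adjusted p = 0.0599). Its second probe set rose by less, by 1.76-fold at P10 and 2.21-fold at P21 (limma adjusted p = 0.000627 and 4.57e-05).

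Message of central glia moved with both glycine receptor genes, as did that of other cell types. Of 7 oligodendrocyte markers fixed as a list, 6 were called higher at P10 and 7 at P21, each against P0. In these comparisons 19.3% and 27.2% of all probe sets were called. The mean log2 level of the markers was 5.95 to 6.59 on the P0 and P3 arrays, 8.92 and 8.10 at P7 and 9.43 to 10.12 from P10 on. Over the 12 arrays the list correlated with Glra3 at r = 0.97 and with Glrb at r = 0.96, and at P7 replicate 1 was the higher of the 2 mice for the list and for both genes. The gene most like Glra3 among 18193 was Ermn, itself an oligodendrocyte marker (r = 0.993), followed by Nat8l (0.991) and Anxa9 (0.991). Those most like Glrb were Svip (r = 0.995), Trappc6b (0.990) and Ak1 (0.989). These arrays share their stages. The neuron list, in which 4 of 12 markers were higher and 1 lower at P10, correlated with Glra3 at r = 0.89 and with Glrb at r = 0.86. For the astrocyte list these values were 0.92 and 0.96, and for the mean of 8 spiral ganglion neuron markers 0.13 and −0.03. The red blood cell list gave 0.86 and 0.81, the bone list 0.76 and 0.85, and the cerebellar granule neuron list 0.78 and 0.76. Schwann cell markers gave 0.54 and 0.69. The hair cell list (−0.72 and −0.70) and the central inhibitory neuron list (−0.79 and −0.74) ran the other way. At P10 against P0, 4 of 6 astrocyte, 3 of 4 Schwann cell, 4 of 4 bone and 2 of 3 red blood cell markers were called higher too, beside 19.3% of all probe sets called. The part of glial message in the rise was not tested.

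**Figure D2:**
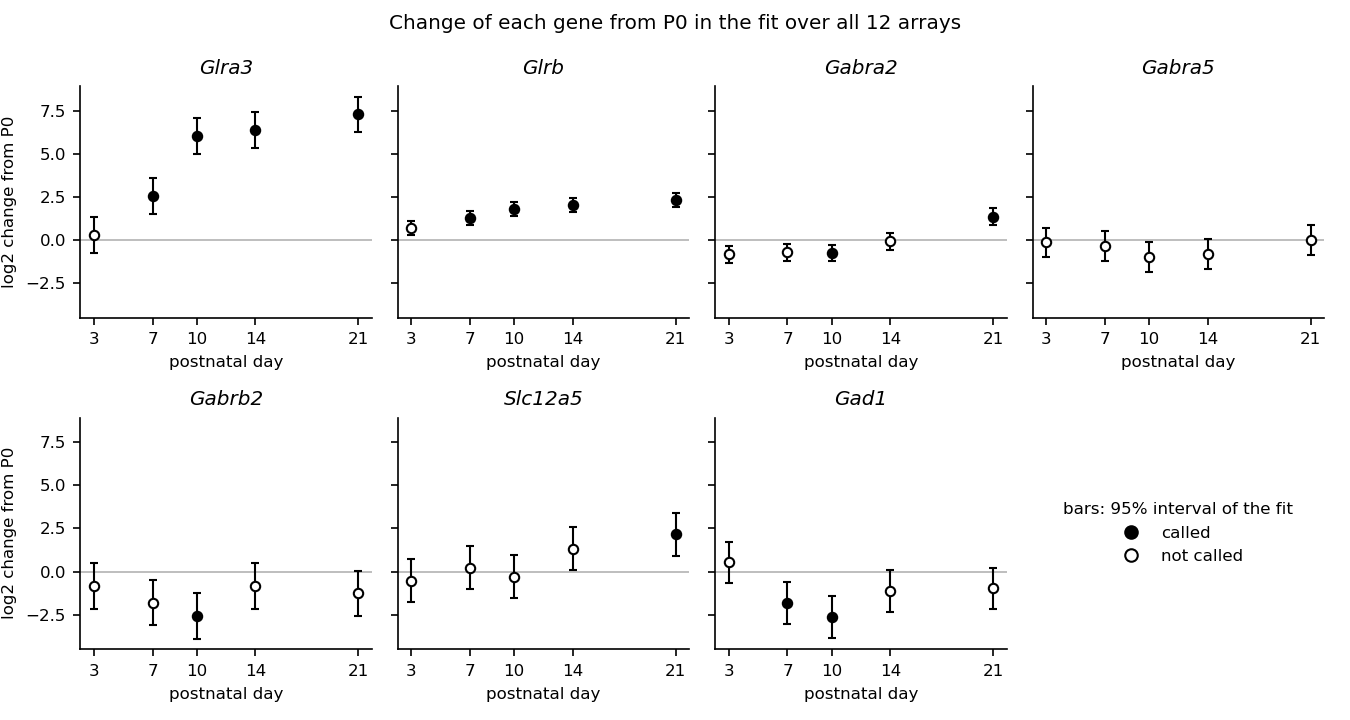
Log2 change of each gene from P0 at the 5 later stages in the limma fit over 12 arrays. Points are fitted changes, bars their 95% intervals, and filled points are called. Glra3 and Glrb are called from P7 on, while the falls of Gabrb2 and Gad1 are called at P10, the latter also at P7, and the intervals at P14 and P21 reach 0.

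Of the GABA-A receptor genes, Gabrb2 fell until P10. It encodes a beta subunit, part of the most common receptor form in the adult brain. It read 8.91 and 8.77 at P0, 8.09 and 7.90 at P3, 6.76 and 7.32 at P7, 6.42 and 6.15 at P10, 8.07 and 7.95 at P14, and 6.31 and 8.85 at P21. From P0 to P10 each stage lay wholly below the one before, both P14 arrays were above both P10 arrays, and the 2 mice of P21, 6.31 and 8.85, spanned nearly the whole range. The fall from P0 to P10 was 5.88-fold (log2 change −2.55 ± 0.59, limma adjusted p = 0.00881), and it missed the threshold without P0 replicate 1 (−2.49, 0.0531) or without P10 replicate 2 (−2.42, 0.0523). The difference of P14 from P10 was 1.72 ± 0.59 and was not called (limma adjusted p = 0.511).

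The wide spread at P21 enters the shared error of the fit for this gene. In a fit without the P21 arrays, chosen after the data were seen, Gabrb2 was already lower at P3 (−0.84, limma adjusted p = 0.0268) and at P7 (−1.80, adjusted p = 0.000295), and it was higher at P14 than at P10 (1.73, adjusted p = 0.0211). That fit called 4.42%, 11.5% and 0.06% of all probe sets in these comparisons. Among its other 4 probe sets in the fit over all 12 arrays, 1428203_at fell 4.77-fold and 1428204_at fell 2.47-fold from P0 to P10 (limma adjusted p = 0.00663 and 0.00163). Both were called lower than at P0 at P7 too (limma adjusted p = 0.0337 and 0.00636). 1428204_at was also called lower at P14 and P21 (limma adjusted p = 0.0254 and 0.0204). The remaining 2 were not called, and 1 of these, 1450319_at, was under the 25th percentile on all 12 arrays. Genes most like Gabrb2 were Pik3r1 (r = 0.924), Slco5a1 (0.923) and Kctd1 (0.914) over 12 arrays. Gabrb2 correlated with the mean of 8 spiral ganglion neuron markers at r = 0.74, with 10 central inhibitory neuron markers at 0.70 and with the neuron list at −0.28. Of the central inhibitory markers 2 were under the 25th percentile on all 12 arrays. With the Schwann cell and bone lists Gabrb2 correlated at −0.73 and −0.69. The spiral ganglion list read 9.47 and 9.28 at P0, 8.52 to 8.67 from P3 to P10, and 9.20 and 9.38 at P14. Its markers did not move as one. At P14 against P0 Neurod1 was called higher and Gata3 and Prph lower, where 21.4% of all probe sets were called. Neurod1 went from 6.21 at P10 to 9.88 at P14 as means of 2 mice, and no marker of the list was called in that step. The part of the share of these neurons in the course of Gabrb2 was not tested.

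Gabra2 encodes an alpha subunit of receptors found at synapses. It dipped after P0 and was highest at P21, reading 6.81 and 6.45 at P0, 5.52 and 6.07 at P3, 5.91 on both arrays of P7, 6.10 and 5.65 at P10, 6.51 and 6.63 at P14, and 8.18 and 7.76 at P21. All P3, P7 and P10 values were below both P0 values, and both P21 values were above every other array. At P10 it was 1.69-fold lower than at P0 (limma adjusted p = 0.0262), a call lost without P0 replicate 1 (0.176) or P10 replicate 2 (0.182). At P21 it was 2.53-fold higher than at P0 (adjusted p = 0.000809) and 2.64-fold higher than at P14 (adjusted p = 0.0153), the latter not called without P14 replicate 1 (0.154) or P21 replicate 1 (0.0631). None of its other 4 probe sets was called in any of the 9 comparisons, and 2 of the 4 were under the 25th percentile on all 12 arrays. With the mean of its 5 probe sets the change to P21 was 0.29 and not called.

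Gabra5 encodes an alpha subunit found mostly outside synapses. It was low throughout, at 5.47 and 5.19 at P0, 4.88 and 5.49 at P3, 4.64 and 5.38 at P7, 4.55 and 4.19 at P10, 4.28 and 4.72 at P14, and 4.71 and 5.96 at P21. On 7 of the 12 arrays it may be background, and it was the only one of the 7 genes not called by the F-test over the stages. Both P10 arrays were under the 25th percentile, so the fall from P0 to P10 has only a bound, at least 1.16-fold, and it was not called (limma adjusted p = 0.0933). The fit without the P21 arrays called it (limma adjusted p = 0.0308), on the same P10 values and with the same bound, which is under the fold limit of 1.5.

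**Figure D3:**
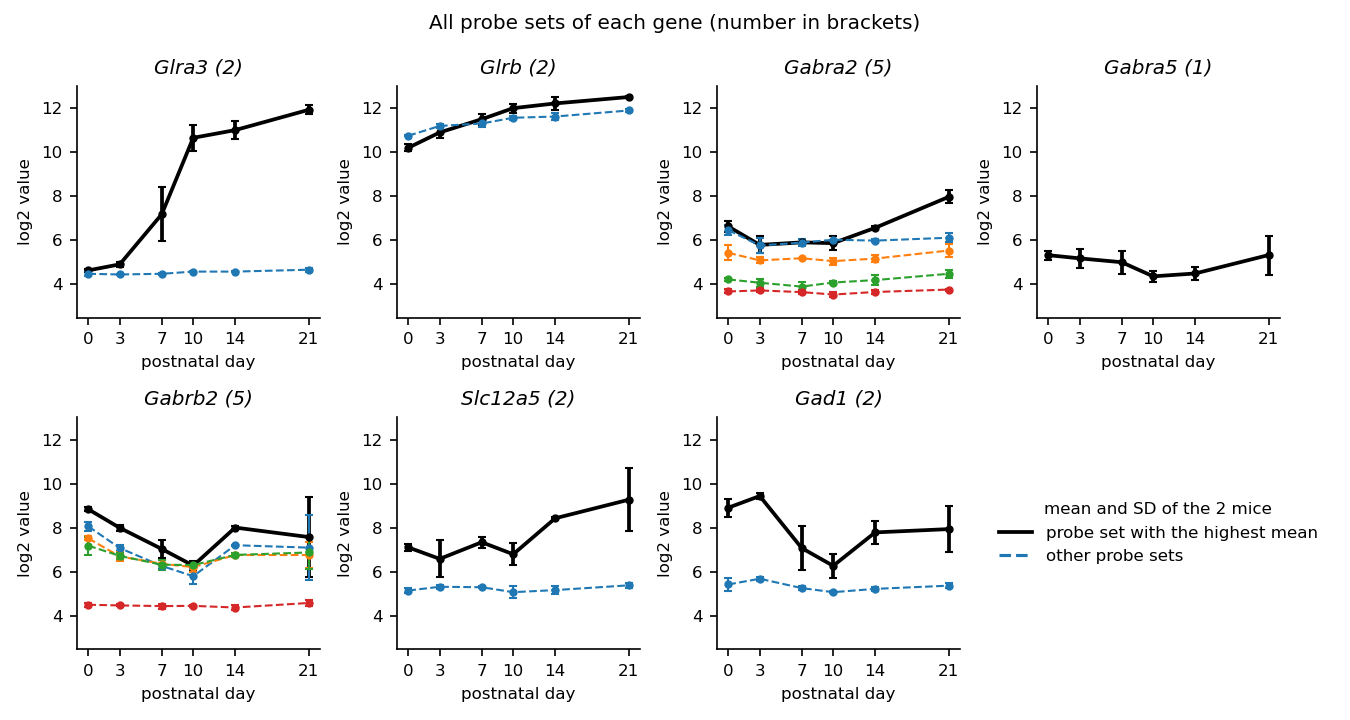
Log2 expression of all 19 probe sets of the 7 genes against postnatal day, as mean and SD of the 2 mice per stage. Black lines are the probe sets used for the tests and dashed lines the others. The second Glra3 probe set stays between 4.41 and 4.74, that of Glrb rises, 3 of the other Gabrb2 probe sets have their lowest mean at P10 like the first, and those of Gabra2 and Slc12a5 were not called in any comparison.

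Slc12a5 rose late. KCC2, its product, is the chloride exporter of mature neurons. It read 6.99 and 7.23 at P0, 6.0 and 7.18 at P3, 7.17 and 7.52 at P7, 7.15 and 6.45 at P10, 8.40 and 8.46 at P14, and 8.26 and 10.28 at P21. All 4 arrays of P14 and P21 were above the 8 earlier ones, which overlapped one another widely. At P21 it was 4.47-fold higher than at P0 (log2 change 2.16 ± 0.56, limma adjusted p = 0.0109). That call was lost without P0 replicate 1 (2.04, 0.0639), and without P21 replicate 2, the array at 10.28, the change was 1.15 (0.0667). The change at P14 was 1.32 ± 0.56 (limma adjusted p = 0.103), called in the fit without the P21 arrays (adjusted p = 0.0176), which called 21.7% of all probe sets there. The other probe set of Slc12a5 stayed between 4.89 and 5.48 and was not called in any comparison. Mast1 (r = 0.965), Htt (0.962) and Clstn3 (0.957) ran most like Slc12a5.

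Gad1, whose enzyme makes GABA from glutamate, was high at birth and dropped within the first week. It read 8.62 and 9.20 at P0, 9.34 and 9.54 at P3, 6.37 and 7.79 at P7, 6.67 and 5.88 at P10, 8.15 and 7.43 at P14, and 7.20 and 8.68 at P21. The P0 and P3 arrays were all above those of P7, P10 and P14, and 1 of the 2 mice of P21 reached the P0 range. From P3 to P7 it fell 5.13-fold (log2 change −2.36 ± 0.54, limma adjusted p = 0.0163), a call lost without either P3 array (0.0537 and 0.076) or without P7 replicate 1 (−1.65, 0.137). Against P0 it was 6.21-fold lower at P10 (limma adjusted p = 0.00462). At P7 it was 3.56-fold lower than at P0 (limma adjusted p = 0.0442), which held in only 3 of the 12 fits that each left out 1 array. The later values, −1.12 at P14 and −0.97 at P21 against P0, were not called (limma adjusted p = 0.151 and 0.183).

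The second probe set of Gad1, between 5.04 and 5.76, was also highest at P3 and lowest at P10 but was not called (limma F-test, adjusted p = 0.0572). Ipcef1 (r = 0.957), Pifo (0.954) and Api5 (0.950) ran most like Gad1 over 12 arrays. Gad1 and Gabrb2 correlated at r = 0.83 and Glra3 and Glrb at r = 0.95, the highest values among the 21 pairs of the 7 genes. Gad1 also followed the mean of 8 hair cell markers (r = 0.80), which read 7.00 to 7.29 at P0 and P3 and 6.31 to 6.83 later. Of these only Myo7a, Atoh1 and Chrna9 were called from P3 to P7, all lower. Gad1 followed the mean of 10 markers of central inhibitory neurons as closely (r = 0.80). Of those only Dlx1 and Npy were called from P3 to P7, both lower, where 9.98% of all probe sets were called. In that list Npy went from 10.98 at P3 to 7.33 at P10 as means of 2 mice, while Slc32a1 stayed between 6.78 and 7.07. The part of either cell type in the fall of Gad1 was not tested.

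Read against all probe sets, the count of called genes was not uniform over the stages. The genes were chosen with earlier results of these data known, so these shares describe them and test nothing. Each gene also stands by its brightest probe set, while the background holds all probe sets, dim ones included. At P3 against P0 none of the 7 was called, where 3.78% of probe sets were, and at an unadjusted limma p under 0.05 with a fold over 1.5 Glrb and Gabra2 passed, beside 2725 of the 45037 probe sets. At P7 it was 3 of 7 (Glra3 and Glrb higher, Gad1 lower; background 11.1%) and at P10 it was 5 of 7, 2 higher and 3 lower (background 19.3%). The median change at P10 was −0.75, beside −0.04 for all genes. At P14 only Glra3 and Glrb were called (background 21.4%), and at P21 it was 4 of 7, all higher (background 27.2%), with a median change of 1.34 beside 0.03. Between successive stages 2 genes were called from P3 to P7 (background 9.98%), Glra3 alone from P7 to P10 (background 0.231%), none from P10 to P14 (background 0%) and Gabra2 alone from P14 to P21 (background 2.45%). The F-test over the 6 stages called 6 of 7, where it called 38.3% of probe sets. The call of Gabrb2 in it (adjusted p = 0.0479) was lost with a replicate block and without any 1 of the 10 arrays up to P14.

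The step from P10 to P14 needs its own figures. Limma called 0 of 45037 probe sets there, 729 passed at an unadjusted p under 0.05 with a fold over 1.5, the methods' t-test passed 370 unadjusted and 0 after Benjamini-Hochberg, and limma on the 4 arrays alone called 9. Of the 7 genes, Gabra2, Gabrb2, Slc12a5 and Gad1 passed at the unadjusted limma p, all higher at P14, and in each of the 4 both P14 arrays were above both P10 arrays.

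The arrays of P14 and P21 also carried more message of cerebellar granule neurons, and among these 4 arrays Gabrb2, Slc12a5 and Gad1 were lowest on the array with the least of it and highest on the array with the most. The neuron list (11.82 and 11.80 at P14, 11.27 and 11.89 at P21) and the spiral ganglion neuron list (9.20 and 9.38, then 8.82 and 9.52) had the same lowest and highest arrays, and so did that of central inhibitory neurons (5.77 and 5.84, then 5.72 and 6.08). Gabra6, the alpha subunit of cerebellar granule neurons, read between 4.43 and 5.24 on the 8 arrays up to P10, then 8.50 and 9.23 at P14 and 6.92 and 9.92 at P21. The mean of 8 granule neuron markers was 7.17 to 7.58 up to P10, 8.57 and 8.79 at P14, and 8.22 and 9.09 at P21. At P21 against P0, 6 of the 8 were called higher, where 27.2% of all probe sets were called. Of the 2 mice of P21, replicate 2 was the higher for this list, for Gabra5, Gabrb2, Slc12a5 and Gad1, and for the mean of 8 spiral ganglion neuron markers. Slc12a5 correlated with the granule list at r = 0.89, Gad1 at −0.06 and Gabrb2 at 0.14, over 12 arrays.

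On P21 replicate 2 Slc6a5, Glra1 and 1 probe set of Slc32a1 stood out as well. Slc6a5, the glycine transporter of glycinergic neurons, read 5.07 to 5.62 on the 11 other arrays and 7.56 there. Glra1, the adult alpha subunit of the glycine receptor, read 4.09 to 5.06 elsewhere and 7.61 there, so that its call at P21 against P0 (limma adjusted p = 0.0449) has 1 of 2 mice in the P0 to P14 range. The brightest probe set of Slc32a1, the vesicular transporter of GABA and glycine, stayed between 6.78 and 7.07, and another, chosen after its values were seen, read 5.28 on P21 replicate 1 and 8.18 on replicate 2. Of the list of 10 central inhibitory markers 1 was called higher at P21 than at P0 and 3 lower, 40% beside 27.2% of all probe sets. The markers Gad2 and Lhx5 of this list were under the 25th percentile on all 12 arrays. Without P21 replicate 2, P21 is 1 mouse, assumed to vary like the other stages, and Gabrb2 at −2.53 and Gad1 at −1.71 were then called lower than at P0 (limma adjusted p = 7.55e-05 and 0.0397), where 27.2% of all probe sets were called, and Slc12a5 was not called. Up to P10, where Gabra6 was low, the fit without P14 and P21 called Glra3 and Glrb higher and Gabra2, Gabra5, Gabrb2 and Gad1 lower at P10 than at P0, 6 of 7 where it called 19.6% of all probe sets, with Gabra5 again bounded at 1.16-fold. The part of central tissue, or of the share of neurons, in the P14 and P21 values was not tested.

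**Figure D4:**
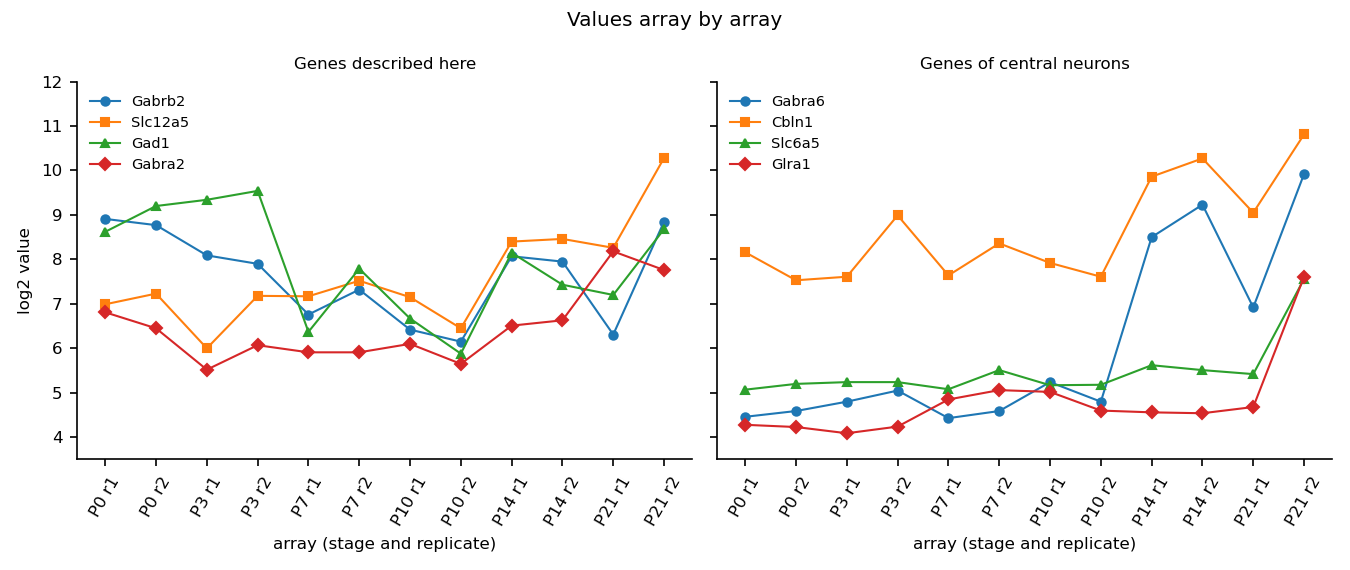
Log2 expression on each of the 12 arrays, in order of stage and replicate, of 4 of the genes described (left) and of 4 genes of central neurons (right). Gabra6 and Cbln1 mark cerebellar granule neurons, Slc6a5 glycinergic neurons, and Glra1 is a glycine receptor subunit. Gabra6 is high on both P14 arrays and on P21 replicate 2, where Slc6a5, Glra1, Gabrb2 and Slc12a5 are above replicate 1 too.

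RNA balance set P21 apart as well. The 3′ control probe set of Actb exceeded the 5′ one by 0.81 to 1.41 on the log2 scale on the 10 arrays up to P14, but by 2.32 and 2.03 at P21. Stage and balance cannot be told apart at P21, since both of its arrays lie above all others. With the balance as a covariate, none of the 7 genes was called at P21 against P0, where 1.34% of all probe sets were, Glra3 being at 6.89 (limma adjusted p = 0.0854), Glrb at 2.12 (0.163), Slc12a5 at 3.23 (0.498) and Gabra2 at −0.04 (0.986). The calls of P10 against P0 were the same 5 genes under this covariate.

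Of the other genes of the pathway, fixed as 62 genes in 10 groups by role, 52 matched a probe set with a single symbol. At P10, 10 of the 52 were higher and 7 lower than at P0, 32.7% beside 19.3% of all probe sets, with a median change of 0.00. At P21, 19 were higher and 4 lower, 44.2% beside 27.2%, with a median of 0.39 beside 0.03 for all genes. From P3 to P7, 8 were called and all were higher, 15.4% beside 9.98%. These groups too were chosen with earlier results known and stand by brightest probe sets, so the shares are description.

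Receptor subunits were mixed. Of the glycine receptor subunits Glra2, an alpha subunit of early life, read 6.12 at P0 and 4.57 at P10 as means of 2 mice, a fall of at least 2.0-fold (limma adjusted p = 0.0116), and Glra4 was not called. Gabra3 and Gabra4, alpha subunits of the GABA-A receptor, fell 2.66-fold and 2.04-fold from P0 to P10 (limma adjusted p = 0.00182 and 0.00176). Gabrg1, a gamma subunit found in glia among other cells, was called at P3 already, at least 1.49-fold (adjusted p = 0.0188), and was at least 2.11-fold higher at P21. Gabrb1, a further beta subunit, was 2.39-fold higher at P21 and Gabra6, described above, at least 13.7-fold higher at P14 (limma adjusted p = 0.00619 and 0.00107). The other 7 genes among gamma, delta and other subunits were called in none of the comparisons named here. Of the GABA-B receptor group, Gabbr1, the subunit that binds GABA, was 2.3-fold higher at P21. None of the 3 other genes of GABA synthesis and breakdown was called at P10 or P21.

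The carriers Slc6a13 and Slc6a12, which take up GABA, rose at both stages. Slc6a13, the transporter GAT2 of meninges and other linings, rose from 7.59 at P0 to 9.75 at P10 and 10.82 at P21 as means of 2 mice, 4.48-fold and 9.35-fold (limma adjusted p = 0.000257 and 1.29e-05). Slc6a12, the betaine and GABA transporter, rose 3.76-fold at P10 and 8.54-fold at P21. Of the 6 genes of the transporter group 2 were called at P10 and 4 at P21, all higher. These are 33.3% and 66.7%, beside 19.3% and 27.2% of all probe sets. Slc6a11, a further GABA carrier, was not called at P10. In the chloride group Clcn2, a chloride channel, rose 2.63-fold by P10 and 4.3-fold by P21, and Slc12a4, a potassium-chloride cotransporter of many cell types, 2.35-fold by P10, while Wnk3, a kinase that regulates these carriers, fell 1.98-fold by P10. Slc12a2, the importer NKCC1 that loads immature neurons with chloride, was not called at P10 or P21.

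At the inhibitory postsynapse Iqsec3, an exchange factor that binds gephyrin, rose 2.88-fold by P10 and 5.35-fold by P21, and Plcl1, which takes part in the traffic of GABA-A receptors, 5.1-fold by P21. Gabarapl1, a homologue of the GABA receptor associated protein, rose 2.03-fold by P10. Of the 12 genes in that group 4 were called at P10 and 5 at P21, all higher. These are 33.3% and 41.7%, beside 19.3% and 27.2% of all probe sets. Gephyrin itself was not called. Glycine breakdown went the other way, as Gldc, which cleaves glycine, fell 2.11-fold from P0 to P10, with Shmt1 and Shmt2 lower too, 3 of 4 genes in that group. Against P0 the group had 1 gene lower at P7 (Shmt1), 1 at P14 (Gldc) and 2 at P21 (Gldc and Shmt2). The shares of all probe sets called were 11.1% at P7, 19.3% at P10, 21.4% at P14 and 27.2% at P21. From P14 to P21 Plcl1, Gabbr1 and Slc6a9, the glial glycine transporter, rose 1.89-fold, 1.61-fold and 1.62-fold (limma adjusted p = 0.045, 0.027 and 0.0247).

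**Figure D5:**
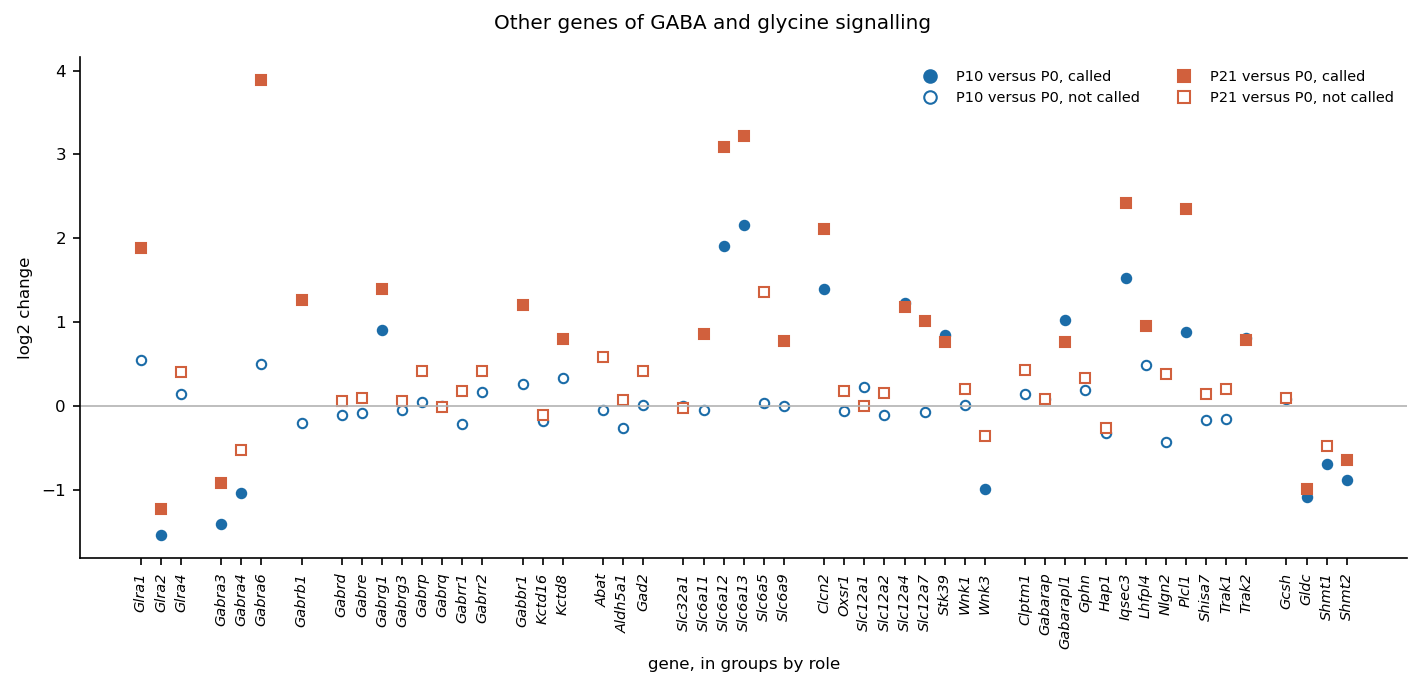
Log2 change from P0 to P10 (circles) and to P21 (squares) of the 52 other genes of GABA and glycine signalling, grouped by role along the horizontal axis. Filled symbols are called. The uptake carriers Slc6a12 and Slc6a13 rise at both stages, Gabra6 and Glra1 are called at P21 alone, and Glra2 and Gabra3 lie below 0 at both.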

How the data were processed

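Total RNA of 12 samples, 2 mice per stage, was labelled with the 3′ IVT Express Kit and hybridised to Affymetrix mouse arrays. The authors normalised the scans in Expression Console by RMA and MAS5. The table they deposited holds the RMA result on the log2 scale, which corrects background, equalises quantiles between arrays and gives 1 value per probe set. Arrays have no read depth, and their number limits the precision. Of 45101 probe sets 64 controls were set aside. No column was left unmapped. The linear model of limma 3.58.1 (R 4.3.3) was fitted to all 12 arrays in 6 groups, with Benjamini-Hochberg adjustment over 45037 probe sets, for 9 comparisons and an F-test over the stages, which needed a range of stage means over 1.5-fold. Quantile normalisation sets all arrays to nearly 1 distribution, so changes are relative to it. The fit was tested on simulated data.

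The 7 genes, the 10 pathway groups and the 10 marker lists were chosen with earlier results of these data known. Genes outside the 7 were named by rule: up to 8 called pathway genes of largest fold per comparison, up to 3 of each marker list, and the 3 genes most correlated with each of the 7. Others named were chosen after their values were seen. Alternatives were a replicate block, array weights, an intensity trend, leaving out dim probe sets, shifting arrays to 1 median, averaging the probe sets of a gene, the Actb balance as a covariate, a fold limit of 2, the 4 arrays alone, the methods' t-test and each array left out. Fits without P21, or without P14 and P21, were added after the data were seen. Gene names came from the platform annotation and promoter windows from RefSeq on GRCm38.p6.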

Additional observations from a re-analysis of the deposited data

How the results depend on the processing

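Over 25 alternatives, 1391 of 1524 values of single genes kept their direction and their side of the threshold, 62 lost a call and 70 gained one. Gabra2 at P21 against P0 reversed, to −0.04, with the Actb balance as a covariate. That covariate took the count of called genes at P21 against P0 to 0 of 7, and the cause was not tested. The methods' t-test after Benjamini-Hochberg gave 0 of 7 at P10 and at P21 against P0 and at P7 against P3, where it called 97, 24 and 2 of 45037 probe sets, and unadjusted gave 0 at P7 against P3. The 4 arrays alone gave 1 there. Leaving out single arrays gave 3 to 6 genes at P10 against P0, 3 to 5 at P21 against P0, 1 to 3 at P7 against P3, and 5 to 7 by the F-test. At P10 against P0 it was 3 without P0 replicate 1 or P10 replicate 2, and at P7 against P3 it was 1 without either P3 array or P7 replicate 1. Replicate numbers were taken as not pairing the samples: over 15 pairs of stages, the deviations of same-numbered arrays correlated at a median r of 0.09 (−0.12 to 0.32), over 0.1 in 6 of the 15, and with a replicate block the counts were 5 at P10 against P0, 4 at P21 against P0 and 2 at P7 against P3, as without it. By the F-test the block gave 5 in place of 6, without Gabrb2. The 2 mice per stage and, for Gabra5 and the early values of Glra3, signals near background limit what can be seen.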
